A study of Macaca mulatta with 6 samples.

Results

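DNA replication licensing and fork genes were followed in bulk RNA-seq libraries of rhesus monkey (Macaca mulatta) cultures labelled as spermatogonial stem cells (SSCs). The cultures were grown with or without platelet-derived growth factor (PDGF). The set was fixed by symbol and held 49 genes, of which 9 act at the replication origin, 15 in the replicative helicase and its activation, 20 in the polymerases and at the fork, and 5 in nucleotide supply. The table of counts listed 17795 genes, 45 of the 49 among them, and all 45 were within the 11539 genes that passed the count filter. ORC1, CDC7, POLD1 and TK1 were not analysed here.

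The SSC PDGF+ group had 3 libraries and the SSC PDGF- group had 3. Replicate 1 of each group was labelled batch 1, and replicates 2 and 3 of each group were labelled batch 2. The labels give testis as the tissue, and the study's methods describe SSCs set in droplets of basement membrane extract under 1 medium containing serum, GDNF, PDGF, EGF, LIF, bFGF, Wnt3a, biotin, vitamin C and melatonin. Beyond the absence of PDGF in the titles, the sources used here do not say how the SSC PDGF- medium differed. They also do not give the donor, its age, the days in culture, what a batch was, or whether replicates were separate cultures, so the p-values below measure the spread between these libraries, which may be technical.

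Eukaryotic cells load an inactive pair of MCM2-7 rings on DNA in G1 through the origin recognition complex (ORC), CDC6 and CDT1, and geminin (GMNN) blocks CDT1 once S phase has begun. The DDK kinase (CDC7 with DBF4) then lets CDC45 and GINS join MCM2-7 to make the active helicase, MCM10 helps to start it, and polymerases alpha, delta and epsilon copy the strands with PCNA, its loader RFC and the single-strand binding protein RPA. Mitotically dividing spermatogonia use the same machinery as other dividing cells, and many of its genes are classical targets of E2F transcription factors, which the retinoblastoma family restrains.

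Total counts ranged from 13095468 to 14102698 in SSC PDGF+ and from 10593808 to 11605912 in SSC PDGF-. Markers of several cell types differed between the groups. The summed level of 9 listed undifferentiated spermatogonial markers was 135 to 152 CPM (counts scaled to library size) in SSC PDGF+ and 178 to 261 in SSC PDGF-, most of it from ID4, and NANOS2 was at 0 in every library. FGFR3 had means of 13.7 CPM with PDGF and 57.8 without. GFRA1 was near 0, with means of 0.118 and 0.539 CPM, and ERBB4, ZBTB16, PIWIL4 and MAGEA4 had lower means than GFRA1 in both groups. DDX4, DAZL, MAEL and the other general germ cell marker in the table summed to 0.301 to 1.28 CPM against 4.80 to 8.43. Spermatid markers (7 genes) summed to 54.9 to 86.6 CPM against 472 to 766, and 6 peritubular myoid markers to 400.0 to 508 CPM against 1015 to 1169. The 7 fibroblast markers summed to 14095 to 19409 CPM in SSC PDGF+ and 16947 to 19129 in SSC PDGF-, a sum in which members went opposite ways: with batch COL1A1 and COL1A2 were higher with PDGF and COL3A1, DCN, LUM and PDGFRA lower. PDGFRA had counts identical to those of FIP1L1, so its reads cannot be assigned to it alone. STRA8, CYP11A1, CD3E, CD3G and PTPRC were at 0 throughout, but other markers of the differentiating, Leydig and myeloid lists were not. Mean levels with and without PDGF were 1.63 and 3.64 CPM for REC8, 296 and 234 for STAR, and 15.8 and 12.9 for CD68. Among the other Leydig markers, DLK1 was at 4.95 and 2.33 CPM, CYP17A1 at 2.37 and 1.98, HSD3B2 at 0.462 and 0.157 and INSL3 at 0 and 0.027. Among the other myeloid markers, CD14 was at 1.12 and 1.52 CPM, CSF1R at 0.716 and 0.728 and CD163 at 0.674 and 0.887. STAR had counts identical to those of LSM1. Of 4 Sertoli markers, GATA4 was at 127 and 116 CPM, WT1 at 2.13 and 2.07, FSHR at 0 and 0.060 and FATE1 at 0 and 0.991. The 5 endothelial markers summed to 7.96 to 10.8 CPM against 6.73 to 9.87, and members again went opposite ways. With batch PECAM1 was higher with PDGF and TEK lower, and VWF had counts identical to those of ANO2. Fibroblast markers were thus far above the general germ cell markers in both groups. SSC is the name the labels give these cultures, and the share of spermatogonia in them was not measured. The part of these marker levels in the replication gene results was not tested, and in bulk libraries fewer cells of a type and less RNA per cell cannot be told apart.

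Levels of the 45 replication genes moved little with PDGF as a set. CPM are given after TMM scaling, which corrects library totals for composition, and log2 fold changes are those of SSC PDGF+ over SSC PDGF-. The summed level of the 45 genes was 2291, 2229 and 2227 CPM in SSC PDGF+ replicates 1 to 3 and 2200, 2118 and 2113 CPM in SSC PDGF- replicates 1 to 3, or 2249 ± 36.2 against 2144 ± 48.9 (SD, n = 3 each). After TMM scaling the sum was higher in every SSC PDGF+ library than in any SSC PDGF- library, by a ratio of means of 1.05. It was not taken under other scaling factors.

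**Figure D1:**
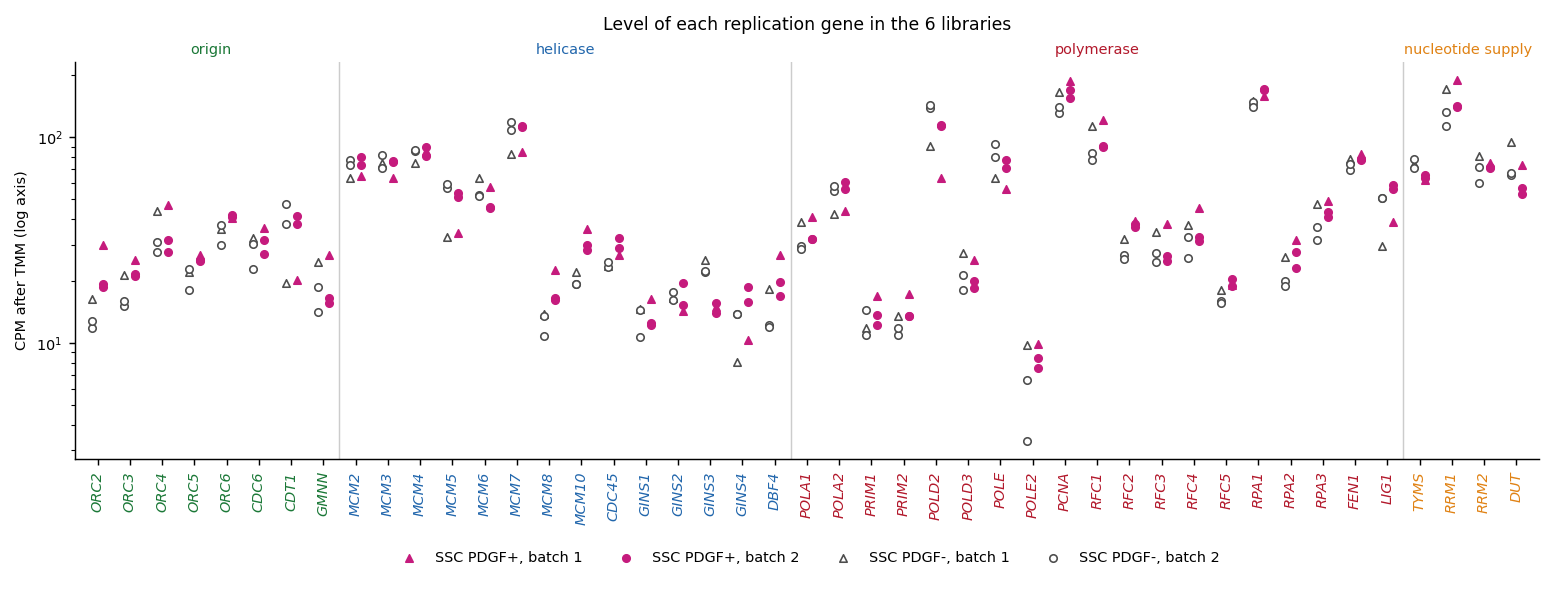
Level of each of the 45 replication genes (CPM after TMM scaling, log axis) in the 6 libraries, by step. Filled symbols are SSC PDGF+ and open symbols SSC PDGF-, triangles are batch 1 and circles batch 2. For most genes the symbols of both groups lie within one another's range, and for genes such as CDT1, MCM5 and POLD2 the triangles stand apart from the circles.

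The first comparison asked which of these genes differed with PDGF when the 6 libraries were compared by group alone (edgeR quasi-likelihood test, Benjamini-Hochberg adjusted over all 11539 genes, adjusted p under 0.05). MCM10 was the 1 gene of 45 that rose (2.22%, against 7.61% of all genes tested) and GINS3 the 1 that fell (2.22%, against 10.7%). The median log2 fold change was 0.13 over the 45 genes and 0.018 over all genes tested, and 33 of 45 were positive (73.3%) against 51.4% of all genes. These values depended on the scaling factors. With upper quartile factors 25 of the 45 were positive and their median was 0.067, while RLE factors gave 33 and no factors 34.

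The second comparison kept the same test and added the batch given by the labels, which lowered the median standard error of the 45 genes from 0.19 to 0.096. In it 15 genes rose (33.3%, against 31.2% of all genes tested) and 6 fell (13.3%, against 29.4%). The share that rose was thus near the share of all genes, and the share that fell was smaller. Those that rose were ORC2, ORC3, ORC5, ORC6, MCM8, MCM10, CDC45, DBF4, PCNA, RFC2, RPA1, RPA2, RPA3, LIG1 and RRM1. MCM6, GINS3, POLD2, POLE, TYMS and DUT fell. With upper quartile in place of TMM scaling, 9 rose and 6 fell. When each library was left out in turn, 7 of the 15 higher and 3 of the 6 lower calls held in all 6 fits.

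Counting genes in which the lowest library of one group lay above the highest of the other, 9 of 45 were higher with PDGF (20%, against 18.2% of all genes tested) and 2 were lower (4.44%, against 19.3%). The former were ORC2, ORC5, ORC6, MCM8, MCM10, CDC45, RFC2, RFC5 and RPA1, and the latter GINS3 and TYMS.

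**Figure D2:**
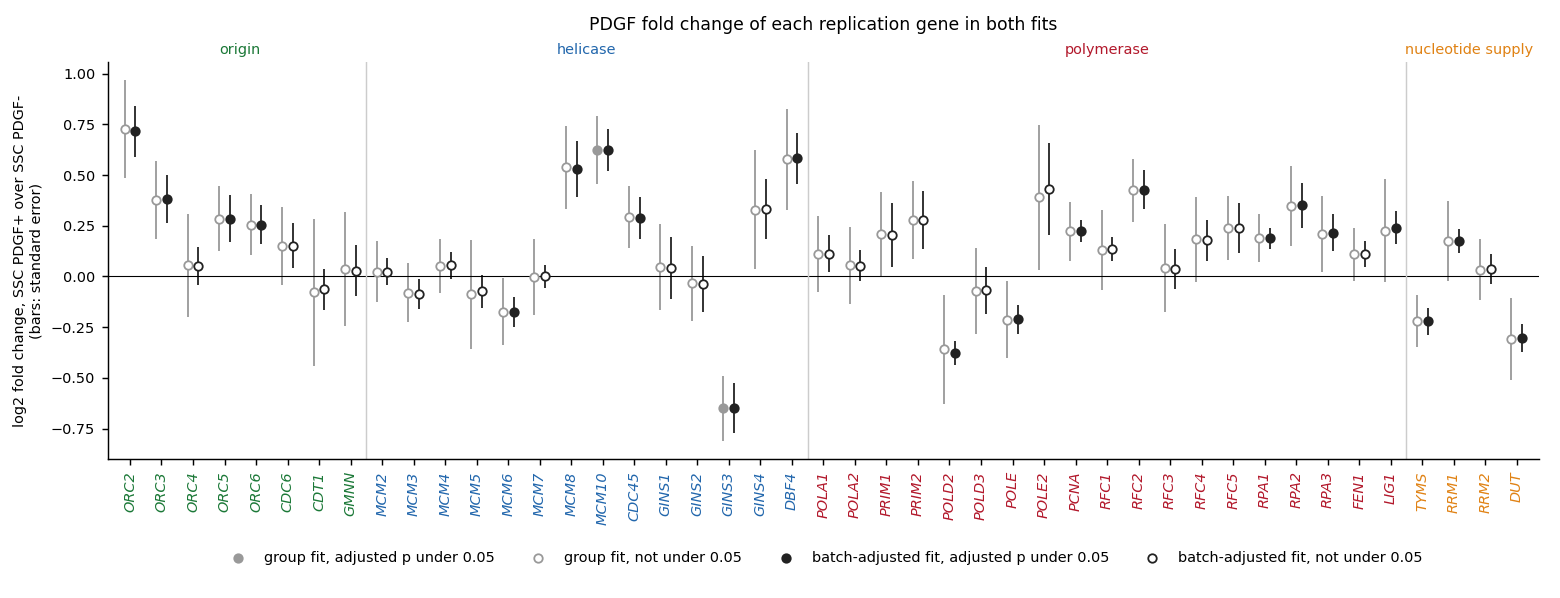
Log2 fold change of SSC PDGF+ over SSC PDGF- for each replication gene, with standard errors as bars, in the group fit (grey) and the batch-adjusted fit (black). Filled symbols passed an adjusted p of 0.05. MCM10 and GINS3 are filled in both fits, 15 genes are filled above and 6 below 0 in the batch-adjusted fit, and the estimates hardly differ between fits while the bars shorten.

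At the origin, ORC2, ORC3, ORC5 and ORC6 rose in the batch-adjusted fit, while ORC4, CDC6, CDT1 and GMNN did not pass. Thus 4 of 8 genes rose (50%, against 31.2% of all genes tested) and 0 fell (against 29.4%), with a median log2 fold change of 0.20. In the group fit none of the 8 passed. Their summed level was 252, 220.0 and 223 CPM in SSC PDGF+ and 216, 177 and 216 CPM in SSC PDGF- replicates 1 to 3.

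ORC2 (chr12:88174222-88235640, minus strand in the Mmul_10 build) encodes an ORC subunit that binds origin DNA with ORC3. It was at 29.8, 19.2 and 18.8 CPM in SSC PDGF+ replicates 1 to 3 and at 16.4, 11.8 and 12.7 CPM in SSC PDGF- replicates 1 to 3. Every SSC PDGF+ library was above every SSC PDGF- library, and batch 1 was the higher batch in both groups. The log2 fold change was 0.73 (SE 0.24, adjusted p = 0.0724) in the group fit and 0.72 (SE 0.13, adjusted p = 3.1e-05) with batch, a fold of 1.64, the largest rise of the 45 genes in that fit, though not after correction for GC content.

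ORC3, the partner of ORC2 within the complex, was at 25.2, 21.6 and 21.2 CPM in SSC PDGF+ and 21.4, 15.04 and 15.97 CPM in SSC PDGF-. The highest SSC PDGF- library lay between the SSC PDGF+ values. It differed by a log2 fold change of 0.38 (SE 0.19, adjusted p = 0.214) by group and 0.38 (SE 0.12, adjusted p = 0.00742) with batch.

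CDC6, the ATPase that joins ORC to recruit CDT1 and the MCM ring, was at 36.1, 26.9 and 31.7 CPM with PDGF and 32.4, 22.8 and 30.2 CPM without. The groups overlapped, with a log2 fold change of 0.15 (SE 0.19, adjusted p = 0.626) by group and 0.15 (SE 0.11, adjusted p = 0.243) with batch.

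CDT1, which brings MCM2-7 to the origin, was at 20.3, 41.1 and 37.9 CPM in SSC PDGF+ and 19.6, 37.9 and 47.4 CPM in SSC PDGF-. Both batch 1 libraries lay below all 4 batch 2 libraries, whichever the group. The PDGF log2 fold change was -0.078 (SE 0.36, adjusted p = 0.902) by group and -0.064 (SE 0.10, adjusted p = 0.608) with batch, and it did not keep its sign under other settings.

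GMNN, the inhibitor of CDT1, showed the opposite split by batch, at 26.7, 16.6 and 15.7 CPM in SSC PDGF+ and 24.7, 14.2 and 18.6 CPM in SSC PDGF-. The PDGF log2 fold change was 0.037 (SE 0.28, adjusted p = 0.939) by group and 0.029 (SE 0.13, adjusted p = 0.857) with batch, also without a stable sign.

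ORC5 and ORC6, the remaining ORC subunits that rose, did so by less, with batch-adjusted log2 fold changes of 0.29 (SE 0.11, adjusted p = 0.0337) and 0.26 (SE 0.095, adjusted p = 0.0234). Their groups did not overlap, but ORC5 kept its call in 1 and ORC6 in 2 of the 6 fits that left a library out. ORC4 stood at 0.052, with an adjusted p of 0.656.

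In the helicase, MCM6 was the 1 of 6 ring subunits to pass in the batch-adjusted fit, lower with PDGF, whereas factors that act on or beside the ring moved in both directions. Of 14 genes, 1 rose and 1 fell in the group fit (7.14% each, against 7.61% and 10.7% of all genes tested). In the batch-adjusted fit 4 rose (28.6%, against 31.2%) and 2 fell (14.3%, against 29.4%), so the share that rose was near that of all genes, with a median log2 fold change of 0.033. The summed level was 557, 607 and 602 CPM in SSC PDGF+ and 534, 604 and 585 CPM in SSC PDGF- replicates 1 to 3.

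The promoters of the genes that moved in both fits, MCM10 and GINS3, and of a pair of ring genes are shown because the set is known for E2F control. Each runs from 250 bases before to 50 bases after the RefSeq gene start of Mmul_10, 5′ to 3′ on the gene's strand, with E2F words and CCAAT boxes in capitals. An E2F word is TTTCCCGC, TTTCGCGC, TTTGCCGC or TTTGGCGC on either strand, and these may overlap one another; a CCAAT box is CCAAT on either strand.
MCM10, chr9:14309646-14309945, plus strand: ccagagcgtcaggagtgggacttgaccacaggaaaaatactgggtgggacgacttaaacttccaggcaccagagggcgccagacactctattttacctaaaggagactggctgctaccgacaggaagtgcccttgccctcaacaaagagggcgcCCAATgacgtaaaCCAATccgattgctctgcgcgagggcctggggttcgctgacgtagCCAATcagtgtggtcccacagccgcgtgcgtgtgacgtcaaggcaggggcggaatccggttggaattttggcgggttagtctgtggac
GINS3, chr20:45638962-45639261, plus strand: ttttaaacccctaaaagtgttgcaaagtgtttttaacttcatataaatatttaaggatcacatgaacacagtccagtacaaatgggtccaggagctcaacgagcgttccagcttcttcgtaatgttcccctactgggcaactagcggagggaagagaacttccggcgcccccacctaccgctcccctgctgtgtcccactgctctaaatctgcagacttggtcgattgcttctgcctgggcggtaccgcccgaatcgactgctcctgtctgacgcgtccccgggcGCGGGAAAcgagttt
MCM3, chr4:117252136-117252435, plus strand: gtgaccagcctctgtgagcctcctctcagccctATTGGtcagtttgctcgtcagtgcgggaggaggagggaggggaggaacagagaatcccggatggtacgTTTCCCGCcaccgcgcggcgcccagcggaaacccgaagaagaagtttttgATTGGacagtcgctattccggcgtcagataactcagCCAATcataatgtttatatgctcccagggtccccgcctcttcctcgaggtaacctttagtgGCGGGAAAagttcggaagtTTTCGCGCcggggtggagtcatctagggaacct
MCM6, chr12:21038126-21038425, minus strand: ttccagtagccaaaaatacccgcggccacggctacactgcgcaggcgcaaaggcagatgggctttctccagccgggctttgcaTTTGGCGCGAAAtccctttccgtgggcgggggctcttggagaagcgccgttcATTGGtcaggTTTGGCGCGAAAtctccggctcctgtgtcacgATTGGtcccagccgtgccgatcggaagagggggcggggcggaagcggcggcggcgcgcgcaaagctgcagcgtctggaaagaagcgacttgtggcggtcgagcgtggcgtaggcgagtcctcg
The MCM10 window held 0 E2F words and 3 CCAAT boxes, that of GINS3 held 1 E2F word after the start and 0 CCAAT boxes, that of MCM3 held 3 and 3, and that of MCM6 held 4 E2F words in overlapping pairs and 2 CCAAT boxes. The MCM10 window does hold tttggcgg, which differs from TTTGGCGC in its last base and was not counted.

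All 45 genes matched a promoter. The E2F word was in 12 (26.7%), against 3.5% of 21107 promoters of the annotation and 4.44% of 11145 promoters of genes tested. The 12 were CDT1, MCM3, MCM4, MCM5, MCM6, GINS1, GINS2, GINS3, POLA1, RFC3, RFC5 and TYMS, 7 of them among the 14 helicase genes. In the batch-adjusted fit 0 of these 12 rose and 3 fell (MCM6, GINS3 and TYMS), while 15 of the 33 without the word rose and 3 fell (POLD2, POLE and DUT). A CCAAT box was in 18 of 45 (40%) against 34.7% of the promoters of the annotation, and 9 of those 18 rose and 1 fell, against 6 and 5 of the 27 without it. Of all genes tested, 31.2% rose and 29.4% fell in that fit. The shares among all tested genes with either motif were not counted, so the splits have no baseline of their own. These counts are descriptions of a short window and a fixed spelling, with no test.

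MCM10 (chr9:14309896-14362378, plus strand), which helps to open the helicase at origins and travels with the fork, was at 35.7, 30.03 and 28.2 CPM in SSC PDGF+ and 22.2, 19.3 and 19.4 CPM in SSC PDGF-. The lowest library with PDGF was above the highest without it. Its log2 fold change was 0.62 (SE 0.17, adjusted p = 0.0349) by group and 0.62 (SE 0.10, adjusted p = 1.8e-05) with batch, a fold of 1.54. The group call was lost on leaving out any library but SSC PDGF- replicate 1, with adjusted p between 0.0308 and 0.124, and held in all 6 such fits with batch.

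GINS3 (chr20:45639212-45649051, plus strand), a subunit of the GINS tetramer of the active helicase, was the one gene to fall in both fits, each without correction for GC content. It was at 14.99, 13.9 and 15.6 CPM in SSC PDGF+ and 25.4, 22.03 and 22.3 CPM in SSC PDGF-, again without overlap. Its log2 fold change was -0.65 (SE 0.16, adjusted p = 0.0257) by group and -0.65 (SE 0.12, adjusted p = 7.2e-05) with batch, a fold of 0.638. The group call was lost without replicate 2 or 3 of either group, with adjusted p between 0.0406 and 0.118 over the 6 fits. The other GINS subunits had batch-adjusted log2 fold changes of 0.042 (GINS1), -0.039 (GINS2) and 0.33 (GINS4), none of which passed.

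CDC45, the third component of the active helicase beside GINS and the ring, was at 26.7, 28.9 and 32.4 CPM in SSC PDGF+ and 23.7, 23.4 and 24.7 CPM in SSC PDGF-. The groups did not overlap. It missed the threshold by group at 0.29 (SE 0.15, adjusted p = 0.224) and passed with batch at 0.29 (SE 0.11, adjusted p = 0.0213), a call lost without SSC PDGF+ replicate 3 or SSC PDGF- replicate 2.

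DBF4, the regulatory subunit of the DDK kinase that phosphorylates the loaded ring, was at 26.7, 19.9 and 16.9 CPM in SSC PDGF+ and 18.3, 12.2 and 11.95 CPM in SSC PDGF-. Replicate 1 was the highest of each group, and SSC PDGF- replicate 1 lay between the SSC PDGF+ values. The log2 fold change was 0.58 (SE 0.25, adjusted p = 0.147) by group and 0.58 (SE 0.13, adjusted p = 3.9e-04) with batch.

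MCM8, which pairs with MCM9 in a helicase for recombination and fork repair and is not part of the ring, stood at 22.5, 16.6 and 16.2 CPM with PDGF and 13.8, 13.5 and 10.8 CPM without. The log2 fold change was 0.54 (SE 0.21, adjusted p = 0.108) by group and 0.53 (SE 0.14, adjusted p = 0.00215) with batch, a call lost without SSC PDGF- replicate 1. Its counts were identical in every library to those of CRLS1, which lies on the same strand of chromosome 10 with 11097 bases between them (CRLS1 at chr10:60473939-60506926 and MCM8 at chr10:60518024-60561763), so the reads cannot be assigned to MCM8 alone.

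Among the ring subunits MCM2 was at 64.7, 80.2 and 72.8 CPM in SSC PDGF+ and 63.5, 77.4 and 73.1 CPM in SSC PDGF-. MCM3 was at 63.2, 76.6 and 75.9 CPM against 74.9, 82.1 and 70.9 CPM, and MCM4 at 85.5, 90.0 and 80.8 CPM against 75.2, 85.7 and 86.2 CPM. For all 3 the groups overlapped, and the batch-adjusted log2 fold changes were 0.024 (SE 0.067, adjusted p = 0.775), -0.086 (SE 0.072, adjusted p = 0.313) and 0.056 (SE 0.066, adjusted p = 0.484).

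MCM5 was at 34.3, 51.3 and 53.6 CPM in SSC PDGF+ and 32.5, 56.5 and 59.1 CPM in SSC PDGF-, and MCM7 at 84.3, 112 and 114 CPM against 82.4, 119 and 109 CPM. Both were lowest in the batch 1 library of each group. Their batch-adjusted log2 fold changes were -0.073 (SE 0.081, adjusted p = 0.453) and 0.00036 (SE 0.059, adjusted p = 0.997). MCM6 was at 57.4, 45.2 and 45.8 CPM in SSC PDGF+ and 63.2, 52.5 and 51.7 CPM in SSC PDGF-, lower with PDGF within each batch. It passed narrowly with batch at -0.17 (SE 0.074, adjusted p = 0.0450), missed by group at -0.17 (SE 0.16, adjusted p = 0.50), and lost the call in each of the 6 fits without 1 library. With the replicate number as a block its adjusted p was 0.0505.

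Levels were compared between genes only per transcript length. On that scale (CPM per kb of the longest RefSeq transcript, mean ± SD, n = 3) MCM7 was the highest ring subunit, at 34.8 ± 5.51 with PDGF and 34.9 ± 6.33 without. MCM6 was the lowest with PDGF, at 17.2 ± 2.39, and MCM5 the lowest without, at 18.97 ± 5.63. The highest ring subunit was 2.02 times the lowest in SSC PDGF+ and 1.84 times in SSC PDGF-. In GINS the spread was 3.67 times with PDGF and 5.94 times without. GINS3 stood at 12.3 ± 0.690 against 19.4 ± 1.54 CPM per kb and GINS1, the lowest of the tetramer, at 3.36 ± 0.575 against 3.26 ± 0.533. In SSC PDGF+ GINS3 and GINS4 (12.3 ± 3.51) were closer together than their SDs.

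**Figure D3:**
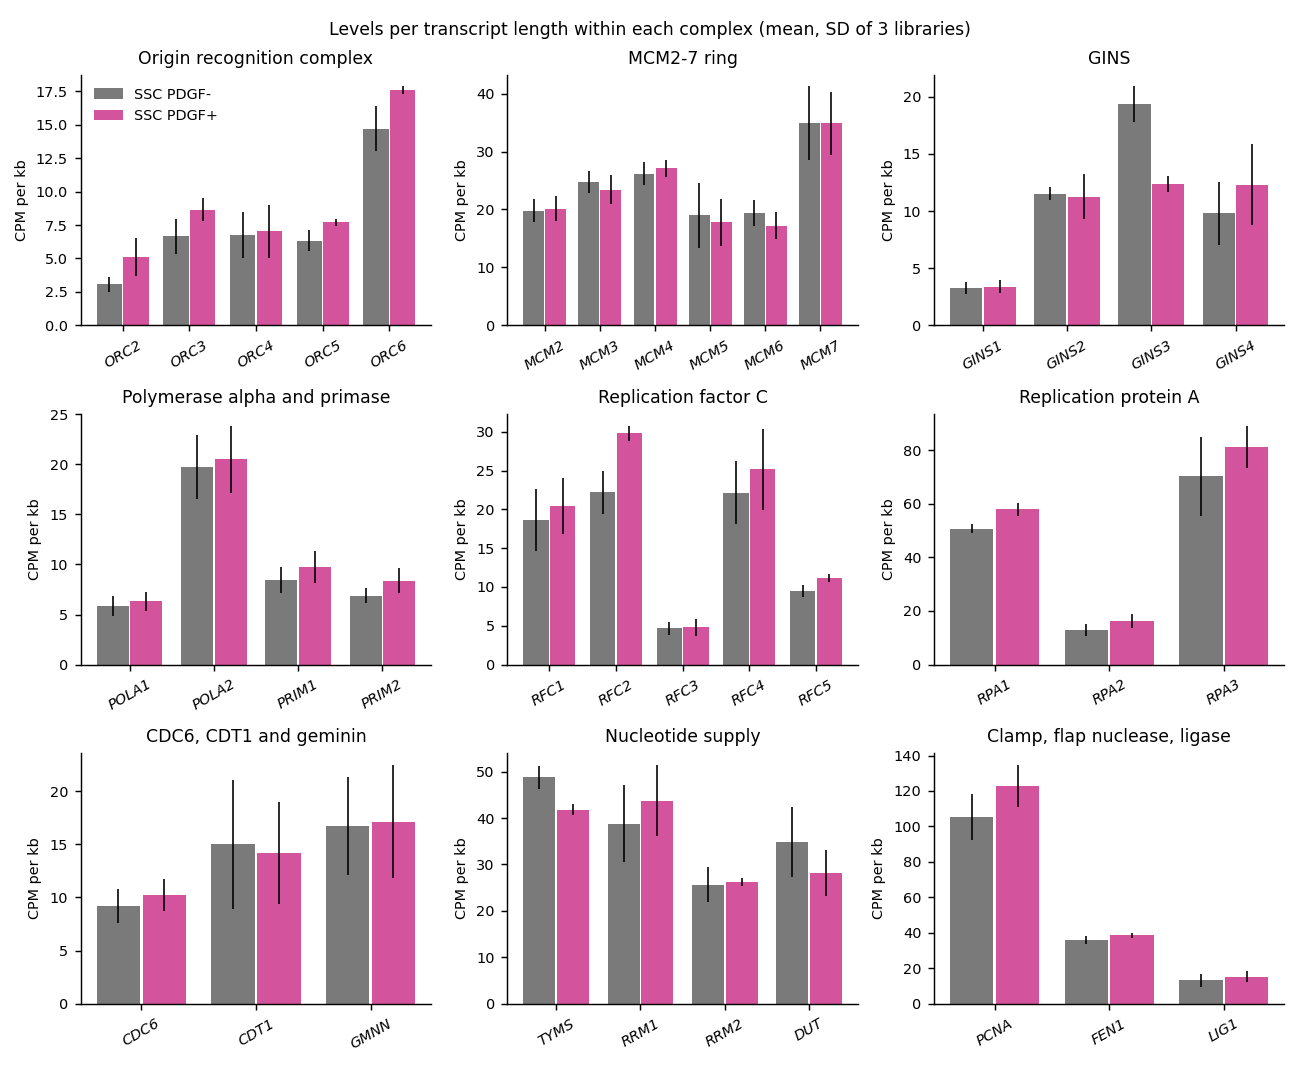
Level per transcript length (CPM per kb) of the genes of 9 complexes or groups, with bars from 0 for the mean of 3 libraries and lines for the SD, SSC PDGF- in grey and SSC PDGF+ in magenta. GINS3 is the clearest fall within a complex (19.4 to 12.3 CPM per kb), and the MCM2-7 bars of both groups lie within their SDs.

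At the polymerases and the fork, the clamp, 1 subunit of its loader, RPA and a ligase rose in the batch-adjusted fit while subunits of polymerases delta and epsilon fell. Of 19 genes 6 rose (31.6%, against 31.2% of all genes tested) and 2 fell (10.5%, against 29.4%), with a median log2 fold change of 0.19, and none passed in the group fit. The share that rose was that of genes in general. The summed level was 1083, 1075 and 1066 CPM in SSC PDGF+ and 1029, 1008 and 983 CPM in SSC PDGF- replicates 1 to 3, or 1075 ± 8.40 against 1007 ± 23.4 (SD, n = 3 each), without overlap. Within batches, 15 of 19 were higher with PDGF in both batches, 3 lower in both and 1 opposite.

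PCNA, the sliding clamp that holds polymerases on DNA, was at 187, 169 and 154 CPM in SSC PDGF+ and 166, 131 and 141 CPM in SSC PDGF-. Replicate 1 was the highest of each group, and SSC PDGF- replicate 1 lay among the SSC PDGF+ values. Log2 fold changes were 0.22 (SE 0.15, adjusted p = 0.331) by group and 0.22 (SE 0.054, adjusted p = 9.7e-04) with batch. Per kb it was the highest of the 45 genes, at 123 ± 11.97 CPM per kb with PDGF and 105 ± 12.99 without.

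RFC2, a small subunit of the clamp loader, was at 38.9, 36.5 and 37.9 CPM in SSC PDGF+ and 32.03, 26.8 and 25.5 CPM in SSC PDGF-. No library of one group reached the other. RFC2 stood at a log2 fold change of 0.43 (SE 0.16, adjusted p = 0.0957) by group and 0.43 (SE 0.10, adjusted p = 4.8e-04) with batch. RFC1, RFC3, RFC4 and RFC5 had batch-adjusted log2 fold changes of 0.13, 0.037, 0.18 and 0.24, none past the threshold, although the groups of RFC5 did not overlap either.

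All 3 subunits of RPA, which coats single-stranded DNA, rose with batch in the fit, at 0.19 (SE 0.053, adjusted p = 0.00374) for RPA1, 0.35 (SE 0.11, adjusted p = 0.00854) for RPA2 and 0.22 (SE 0.090, adjusted p = 0.0417) for RPA3. The RPA1 call held in all 6 fits without 1 library, the RPA2 call in 5 and the RPA3 call in 3. LIG1, the ligase that joins Okazaki fragments, rose by 0.24 (SE 0.081, adjusted p = 0.0133), a call lost on leaving out either batch 1 library, and FEN1, the flap nuclease that trims them, stood at 0.11 (SE 0.064, adjusted p = 0.145).

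POLD2 (chr3:71095931-71104862, plus strand), the accessory B subunit of the lagging strand polymerase delta, was at 63.2, 113 and 115 CPM in SSC PDGF+ and 90.6, 139 and 144 CPM in SSC PDGF-. Within each batch the SSC PDGF- libraries were the higher, but the batch 1 library of SSC PDGF- lay below the batch 2 libraries of SSC PDGF+. The log2 fold change was -0.36 (SE 0.27, adjusted p = 0.387) by group and -0.38 (SE 0.059, adjusted p = 7.5e-06) with batch. POLD3, the adaptor subunit of the same enzyme, stood at -0.069 with batch.

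POLE, the catalytic subunit of the leading strand polymerase epsilon, was at 56.2, 77.1 and 70.5 CPM in SSC PDGF+ and 63.4, 92.6 and 80.4 CPM in SSC PDGF-. The groups overlapped, while within each batch the SSC PDGF- libraries were the higher. It stood at -0.21 (SE 0.19, adjusted p = 0.472) by group and -0.21 (SE 0.070, adjusted p = 0.0122) with batch, and the call was lost without SSC PDGF+ replicate 3 or SSC PDGF- replicate 2. POLE2, its accessory subunit, had the lowest counts of the 45 genes, at 9.92, 7.51 and 8.49 CPM against 9.77, 3.35 and 6.56 CPM, and a batch-adjusted log2 fold change of 0.43 (SE 0.23, adjusted p = 0.104).

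POLA1, the catalytic subunit of polymerase alpha, which starts each new strand with primase, was at 41.04, 32.1 and 31.9 CPM in SSC PDGF+ and 38.8, 29.7 and 28.7 CPM in SSC PDGF-. The estimate was 0.11 (SE 0.19, adjusted p = 0.721) by group and 0.11 (SE 0.091, adjusted p = 0.302) with batch. The accessory subunit POLA2 and the primase genes PRIM1 and PRIM2 stood at 0.054, 0.20 and 0.28 with batch, and none passed.

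In nucleotide supply, a subunit of ribonucleotide reductase rose and both enzymes that act on the thymidylate path fell in the batch-adjusted fit, so that 1 of 4 genes rose (25%, against 31.2% of all genes tested) and 2 fell (50%, against 29.4%). None passed in the group fit. Their summed level was 399, 327 and 335 CPM in SSC PDGF+ and 420.2, 329 and 329 CPM in SSC PDGF- replicates 1 to 3.

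TYMS, thymidylate synthase, was at 61.97, 63.6 and 65.4 CPM in SSC PDGF+ and 73.8, 70.7 and 78.1 CPM in SSC PDGF-. Every SSC PDGF+ library was below every SSC PDGF- library. On the log2 scale the difference was -0.22 (SE 0.13, adjusted p = 0.269) by group and -0.22 (SE 0.068, adjusted p = 0.00716) with batch, a call lost without SSC PDGF+ replicate 1.

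DUT, the dUTPase that keeps uracil out of DNA and yields the substrate of TYMS, was at 73.1, 52.8 and 56.9 CPM in SSC PDGF+ and 94.4, 65.2 and 66.9 CPM in SSC PDGF-. It was lower with PDGF within each batch, and batch 1 was the higher batch. The log2 fold change was -0.31 (SE 0.20, adjusted p = 0.322) by group and -0.30 (SE 0.068, adjusted p = 4.8e-04) with batch, and the latter call held in all 6 fits without 1 library.

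RRM2, the S phase subunit of ribonucleotide reductase, was at 75.2, 71.5 and 70.7 CPM in SSC PDGF+ and 80.8, 60.2 and 71.3 CPM in SSC PDGF-. The SSC PDGF- values spanned the SSC PDGF+ values, and the log2 fold change was 0.034 (SE 0.15, adjusted p = 0.897) by group and 0.037 (SE 0.074, adjusted p = 0.681) with batch. RRM1, the large subunit of the same enzyme, rose by 0.18 (SE 0.058, adjusted p = 0.0115) with batch, a call lost without SSC PDGF- replicate 3.

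Batch was then read as a term of its own, apart from PDGF, in the same fit. In it 9 of the 45 genes were higher in batch 2 (20%, against 29.3% of all genes tested) and 19 were lower (42.2%, against 27.9%). CDT1 had the largest batch term, with a log2 fold change of 1.04 (SE 0.11, adjusted p = 3.4e-08) of batch 2 over batch 1, followed by GINS4 at 0.76 (SE 0.16, adjusted p = 2.9e-04), POLD2 at 0.74 (SE 0.065, adjusted p = 8.1e-10), MCM5 at 0.72 (SE 0.089, adjusted p = 2.3e-07) and LIG1 at 0.66 (SE 0.088, adjusted p = 6.9e-07). GMNN at -0.66 (SE 0.13, adjusted p = 1.1e-04), POLE2 at -0.62 (SE 0.23, adjusted p = 0.0245) and ORC4 at -0.62 (SE 0.10, adjusted p = 7.3e-06) were at the other end. CDT1 and its inhibitor geminin lay at opposite ends of the batch term.

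The batch term followed the GC content of the transcripts. Across the 45 genes its Pearson correlation with GC content was 0.87 and across 11237 genes tested with a GC value it was 0.79, as a description, since genes of a library share its depth and base composition. In the third of the 45 genes with the lowest GC content (37.2% to 44.2%, 15 genes) 0 were higher in batch 2 and 10 lower. In the third with the highest (50.7% to 65.6%, 15 genes) 9 were higher and 1 lower. The median GC content was 46.3% for the 45 genes and 49.2% for all genes with a value.

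Coding sequences of genes picked from the ends of the batch term illustrate this contrast. GINS4 and POLE2 had batch terms of like size with less extreme GC contents, of 53.6% and 44.8%, and are not shown. The middle 120 coding bases are given, 5′ to 3′, for a pair of genes high and a pair low in batch 2, with every G and C in capitals. They are from the RefSeq transcript (Mmul_10) with the longest coding sequence.
CDT1, coding bases 767 to 886: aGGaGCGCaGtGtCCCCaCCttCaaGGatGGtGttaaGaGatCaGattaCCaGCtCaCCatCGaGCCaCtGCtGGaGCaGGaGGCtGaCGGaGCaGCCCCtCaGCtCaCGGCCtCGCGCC
POLD2, coding bases 745 to 864: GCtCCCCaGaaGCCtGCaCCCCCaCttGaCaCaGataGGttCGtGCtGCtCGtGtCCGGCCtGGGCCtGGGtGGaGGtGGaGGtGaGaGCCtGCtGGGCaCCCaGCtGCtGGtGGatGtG
GMNN, coding bases 254 to 373: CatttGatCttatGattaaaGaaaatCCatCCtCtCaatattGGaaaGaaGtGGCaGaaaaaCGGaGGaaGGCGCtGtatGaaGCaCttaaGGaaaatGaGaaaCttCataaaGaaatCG
ORC4, coding bases 595 to 714: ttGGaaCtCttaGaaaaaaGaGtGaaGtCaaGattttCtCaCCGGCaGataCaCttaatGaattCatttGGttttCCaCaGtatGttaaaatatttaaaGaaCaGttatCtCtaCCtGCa
G and C made up 74 of 120 bases in CDT1, 79 in POLD2, 43 in GMNN and 39 in ORC4. Over the whole of the longest transcript, which may be a different one, the GC content was 65.6% for CDT1, 57.04% for POLD2, 40.9% for GMNN and 37.2% for ORC4.

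**Figure D4:**
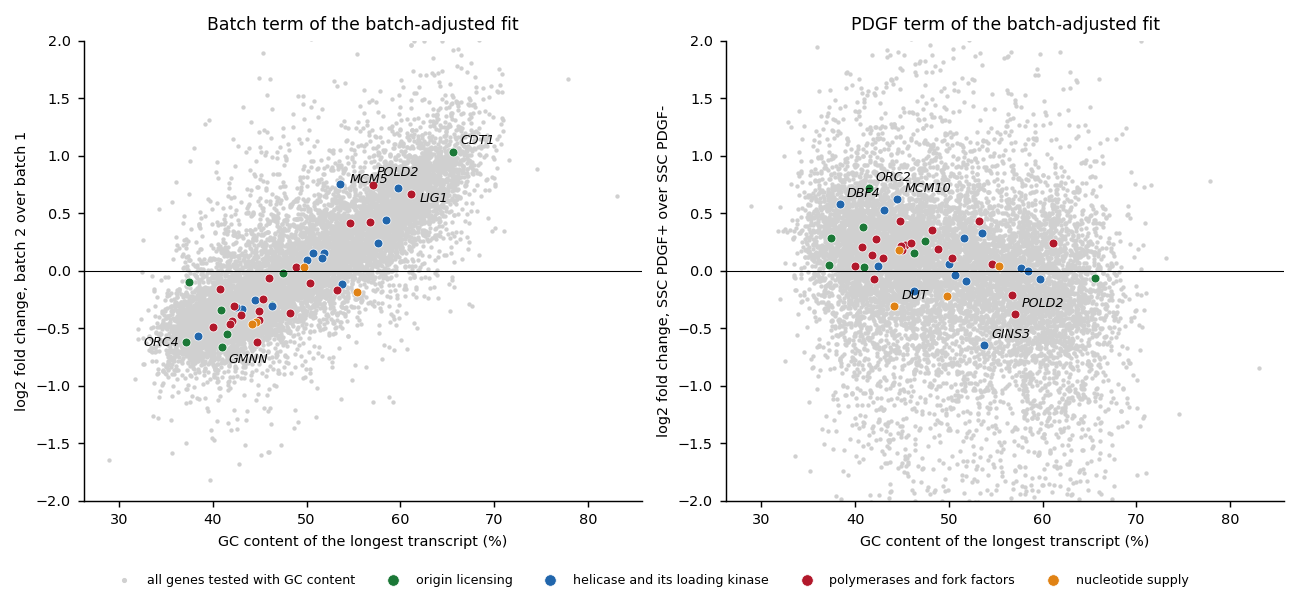
GC content of the longest transcript (%) against the log2 fold change of batch 2 over batch 1 (left) and of SSC PDGF+ over SSC PDGF- (right) in the batch-adjusted fit. Grey points are the 11237 genes tested with a GC value and coloured points the 45 replication genes; the axes end at 2, which leaves 26 genes (left) and 582 genes (right) undrawn, none of them a replication gene. The left cloud climbs from ORC4 and GMNN to CDT1 (r = 0.87 over the replication genes), and the right one falls weakly (r = -0.39).

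The PDGF term also had a weaker correlation with GC content, of -0.39 across the 45 genes and -0.21 across all genes in the batch-adjusted fit. ORC2, DBF4, ORC3 and MCM10, with GC contents of 41.5%, 38.4%, 40.9% and 44.5%, were on the side of low GC content and higher levels, and POLD2 (57.04%), POLE (56.7%) and GINS3 (53.8%) on the other. LIG1 (61.1%) and RFC2 (53.3%) rose with transcripts rich in GC, and DUT (44.2%) fell with a transcript poor in it.

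A correction of each library for GC content and transcript length was set beside the batch-adjusted fit. It left 12 of the 45 genes higher with PDGF (26.7%, against 28.6% of all genes tested) and 5 lower (11.1%, against 28.2%). ORC2 at 0.54 (SE 0.13, adjusted p = 7.2e-04), MCM10 at 0.48 (SE 0.10, adjusted p = 3.7e-04), DBF4 at 0.36 (SE 0.13, adjusted p = 0.0195), MCM8 at 0.37 (SE 0.14, adjusted p = 0.0285), CDC45 at 0.31 (SE 0.11, adjusted p = 0.0141), PCNA at 0.29 (SE 0.053, adjusted p = 4.6e-05) and RFC2 at 0.66 (SE 0.10, adjusted p = 2.2e-06) were among those that passed higher, as were RPA2, RPA3 and LIG1. GINS3 passed lower at -0.38 (SE 0.12, adjusted p = 0.0100), POLD2 at -0.21 (SE 0.057, adjusted p = 0.00292), DUT at -0.41 (SE 0.068, adjusted p = 1.4e-05), MCM6 at -0.31 (SE 0.074, adjusted p = 0.00101) and POLE at -0.21 (SE 0.071, adjusted p = 0.0142).

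ORC3, at 0.19 (SE 0.12, adjusted p = 0.181), no longer passed, nor did ORC5, ORC6, RPA1, RRM1 or TYMS, the last at -0.12 (SE 0.068, adjusted p = 0.148). At the origin 1 of 8 genes thus stayed called. MCM2 at 0.16 (SE 0.067, adjusted p = 0.0427) and GINS4 at 0.59 (SE 0.15, adjusted p = 0.00146) passed only with the correction. CDT1 stood at 0.20 (SE 0.10, adjusted p = 0.0948) and ORC4 at -0.22 (SE 0.10, adjusted p = 0.0533), on the other side of 0 from their uncorrected values. In the group fit the same correction gave 9 higher calls (20%, against 20.6% of all genes tested) and 2 lower (4.44%, against 20.9%). The 2 were MCM6 and DUT, and GINS3 lost its group call there, with a log2 fold change of -0.39 and an adjusted p of 0.0646.

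With the correction the batch term called 6 of the 45 genes higher in batch 2 (13.3%, against 13.6% of all genes tested) and 2 lower (4.44%, against 6.28%). Its correlation with GC content over the 45 genes was 0.16. Since the correction subtracts each library's trend with GC content, a lower correlation was built into it and is no separate result.

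**Figure D5:**
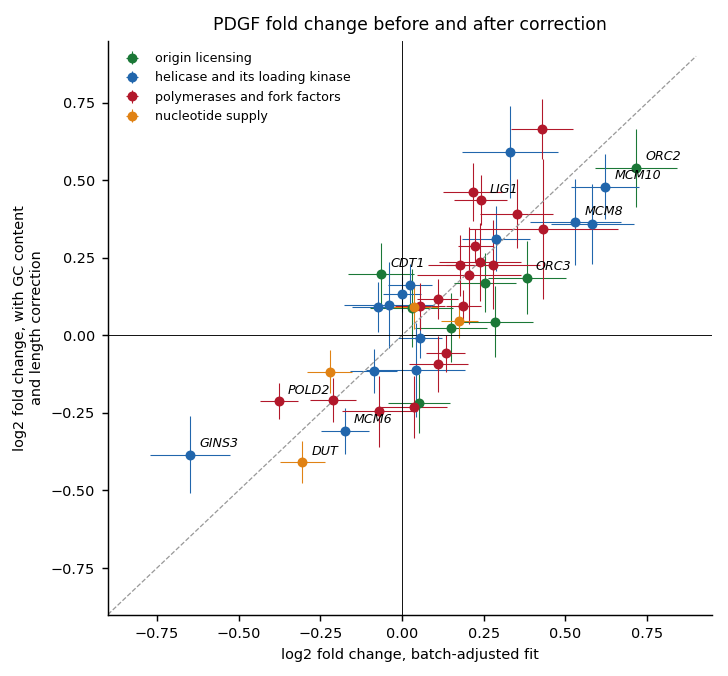
Log2 fold change of SSC PDGF+ over SSC PDGF- without (horizontal) and with (vertical) correction for GC content and transcript length in the batch-adjusted fit, for the 45 replication genes, with standard errors as bars and the line of equal values dashed. ORC2 and MCM10 stay high (0.54 and 0.48 with correction), GINS3 moves from -0.65 to -0.38, and ORC3 moves from 0.38 to 0.19.

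Whether PDGF acted differently in the 2 batches was asked with an interaction term. By edgeR's quasi-likelihood test 0 of 11539 genes passed (0%), none of the 45 among them. At an unadjusted p under 0.05 there were 526 genes (4.56%) and again none of the 45, with 0.104 for POLD2, 0.120 for MCM3 and 0.652 for MCM10. Batch 1 had 1 library a group, so this test had 2 residual degrees of freedom. Side by side, 28 of 45 genes were higher with PDGF in both batches (62.2%), 8 were lower in both (17.8%) and 9 went opposite ways (20%), against 43.5%, 41.4% and 15.2% of all genes tested. MCM10 differed by 0.69 in batch 1 and 0.58 in batch 2 on the log2 scale, GINS3 by -0.76 and -0.59, ORC2 by 0.86 and 0.63, and POLD2 by -0.52 and -0.31.

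Other genes of the pathway were taken from fixed lists. Of 22 further fork and origin factors tested, 1 rose by group (4.55%, against 7.61% of all genes tested) and none fell. With batch 9 rose (40.9%, against 31.2%) and 2 fell (9.09%, against 29.4%), and their median log2 fold change was 0.30 in both fits. Of the 9, CHTF8, DNA2 and DONSON had counts identical to those of DERPC, SLC25A16 and ATP5PO, so their reads cannot be assigned to them alone. With the GC correction DNA2, TOPBP1 and MMS22L no longer passed, with adjusted p of 0.0609, 0.0790 and 0.181. POLE3, MCMBP, CLSPN, CHTF8, DSCC1 and DONSON still rose there and no other gene of the list did, where 28.6% of all genes tested rose. MCMBP, which unloads and protects MCM rings, was at 69.1, 58.2 and 63.7 CPM in SSC PDGF+ and 42.05, 38.03 and 38.8 CPM in SSC PDGF-, without overlap. It rose by 0.68 (SE 0.14, adjusted p = 0.0135) in the group fit, a call lost without SSC PDGF+ replicate 3 or SSC PDGF- replicate 2 or 3. POLE4, a histone-fold subunit of polymerase epsilon, fell with batch, with a log2 fold change of -0.70 (SE 0.078, adjusted p = 4.3e-08), and so did POLD4, the smallest subunit of polymerase delta, at -0.36 (SE 0.11, adjusted p = 0.00544). With the GC correction POLE4 stood at -0.28 (SE 0.080, adjusted p = 0.00392) and POLD4 at 0.16 (SE 0.10, adjusted p = 0.189).

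Among 9 further enzymes of nucleotide supply, none rose and 1 fell by group (11.1%, against 10.7% of all genes tested), and 2 rose and 2 fell with batch (22.2% each, against 31.2% and 29.4%), with a median log2 fold change of 0.13 in both fits. SHMT1, the cytosolic enzyme that feeds one-carbon units to thymidylate synthesis, was at 2.50, 2.03 and 2.33 CPM in SSC PDGF+ and 5.67, 8.81 and 7.35 CPM in SSC PDGF-. It fell with a log2 fold change of -1.66 (SE 0.27, adjusted p = 0.00473) by group, and the call held in all 6 fits without 1 library. DCK, the kinase that salvages deoxycytidine, rose by 0.82 (SE 0.15, adjusted p = 6.5e-05) with batch, but its counts were identical to those of MOB1B. NME1, which fell with batch beside SHMT1, had counts identical to those of NME2. SAMHD1, which breaks down deoxynucleotides, rose by 0.38 (SE 0.13, adjusted p = 0.0173). With the GC correction SAMHD1 stood at 0.26 (SE 0.13, adjusted p = 0.102) and NME1 at 0.053 (SE 0.037, adjusted p = 0.230). DCK and SHMT1 kept their calls there, while DTYMK passed higher and RRM2B and GMPS lower.

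Of 21 regulators of E2F activity and S phase entry, 2 rose and 1 fell by group (9.52% and 4.76%, against 7.61% and 10.7% of all genes tested), and 9 rose and 2 fell with batch (42.9% and 9.52%, against 31.2% and 29.4%), with a median log2 fold change of 0.23 in both fits. E2F7, an E2F that represses its targets, was at 232, 172 and 167 CPM in SSC PDGF+ and 58.1, 48.4 and 49.97 CPM in SSC PDGF-. It rose by 1.87 (SE 0.18, adjusted p = 4.4e-04) in the group fit and held in all 6 fits without 1 library. RB1, the retinoblastoma protein, was at 76.95, 55.3 and 48.3 CPM with PDGF and 35.4, 26.6 and 29.9 CPM without, and rose by 0.97 (SE 0.21, adjusted p = 0.0164), a call lost without SSC PDGF- replicate 2 or 3. E2F2, an activating E2F with low counts, was at 0.675, 1.72 and 1.43 CPM in SSC PDGF+ and 4.85, 6.61 and 6.66 CPM in SSC PDGF-. Its log2 fold change was -2.25 (SE 0.37, adjusted p = 0.00535) by group, and it too held in all 6 fits. With batch and the GC correction RBL1, RBL2 and FBXO5, among the 9 that rose, no longer passed (adjusted p of 0.109, 0.0938 and 0.257). E2F4 and CCNE1 passed higher only with that correction (adjusted p of 0.00125 and 0.0226), and E2F2 and TFDP2 still passed lower.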

How the data were processed

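Total RNA of 6 libraries was enriched for mRNA, fragmented and sequenced, per the labels. The submitters' processing notes name fastp, HISAT2 2.1.0, SAMtools and featureCounts 2.0.1 and the builds Mmul_10 and Mmul_8.0.1, with no order. The authors deposited 1 table of estimated counts per gene symbol, not normalized, of which 34 values in 13 genes were not whole (none a replication gene); values were rounded. Of 1991 identifiers in the table starting with LOC114, 1990 occur in the RefSeq annotation of Mmul_10 (release 103), which was used for positions, GC content, transcript length and promoters; 17389 of 17795 symbols matched it and 17013 had GC content and length. Sequences are from RefSeq, Mmul_10.

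The 45 genes were tested with edgeR 4.0.16 (R 4.3.3) on all genes past filterByExpr by group, with TMM factors, glmQLFit and glmQLFTest, Benjamini-Hochberg adjusted over 11539 genes, threshold 0.05. Models were group, batch and group, and their interaction. Groups and batches came from the labels. The GC and length correction subtracted, per library, natural splines (5 degrees of freedom each) of GC content and log2 length, and genes without values stayed uncorrected. Alternatives were RLE, upper quartile and no factors, 2 other filters, DESeq2 1.42.0, limma-voom (limma 3.58.1), left-out libraries, summed replicates 2 and 3, a replicate block, batch 2 alone and a threshold of 0.10. Within-batch log2 differences had 0.5 counts added. The scripts were tested on simulated data.

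Replicate numbers are tied to batch by the labels. Deviations from the group means correlated between same-numbered libraries at 0.73, 0.35 and 0.37 for numbers 1, 2 and 3 (11539 genes), and between numbers 2 and 3 at 0.39 and 0.36, so that the numbers separate batches rather than replicates 2 and 3. Genes were named in full when called by group, when among the 6 largest changes in a direction of genes called with batch, or when on a fixed list that includes the MCM ring. The genes and lists were chosen with earlier results of these data known.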

Additional observations from a re-analysis of the deposited data

How the results depend on the processing

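Calls by group alone rested on few libraries and settings. With 1 gene higher and 1 lower in the group fit, upper quartile factors and no factors each gave 0 higher, DESeq2 2 (MCM10 and ORC2), the GC content and length correction 9 higher and 2 lower, summed replicates 2 and 3 gave 0 and 0, batch 2 alone 10 and 5, and a threshold of 0.10 gave 3 higher. Leaving out each library in turn gave 0 to 4 higher and 0 to 1 lower. The replicate block gave 15 higher and 5 lower, and with the GC correction 12 and 6; beside the batch-adjusted fit it changed the call of MCM6 and of no other replication gene. In the batch-adjusted fit, upper quartile factors gave 9 higher where TMM gave 15, and every other alternative gave 10 to 18 higher and 4 to 6 lower. With the GC correction, chosen after seeing the data for this term, 2 genes were lower in batch 2 in place of 19. The cause of these moves was not tested. Batch 1 held 1 library of each group, so a difference within it has no replicate check, and POLE2, at 35 counts in its lowest library, is the replication gene most limited by depth.

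Among the 24 genes named in full, signs changed in 9, all with log2 fold changes near 0. By group with the GC correction, CDT1 stood at 0.20, MCM4 at -0.013, MCM5 at 0.086, MCM7 at 0.13 and POLA1 at -0.092, and with the replicate block added CDT1 at 0.20, MCM4 at -0.0081, MCM5 at 0.091, MCM7 at 0.13 and POLA1 at -0.092. With upper quartile factors GMNN stood at -0.024, MCM2 at -0.040, MCM4 at -0.010 and RRM2 at -0.031. In batch 2 alone GMNN was at -0.040 and MCM4 at -0.029. With at least 10 counts in every library MCM2 was at -0.0094. MCM7 was at 0.013 without factors, 0.028 without a filter, 0.0033 in limma-voom, 0.020 with summed replicates and 0.0011 with the replicate block. Leaving out 1 library, the group log2 fold change ranged from -0.38 to 0.21 for CDT1, -0.24 to 0.26 for GMNN, -0.064 to 0.11 for MCM2, -0.12 to 0.015 for MCM3, -0.020 to 0.10 for MCM4, -0.33 to 0.10 for MCM5, -0.15 to 0.13 for MCM7, -0.012 to 0.25 for POLA1 and -0.065 to 0.13 for RRM2.
With batch and the GC correction CDT1 stood at 0.20, MCM4 at -0.0073, MCM5 at 0.091 and POLA1 at -0.092. With batch and upper quartile factors GMNN was at -0.034, MCM2 at -0.040, MCM4 at -0.0085, MCM7 at -0.064 and RRM2 at -0.027, and with at least 10 counts in every library GMNN was at -0.0032, MCM2 at -0.0091 and MCM7 at -0.033. MCM7 was at -0.0040 with RLE factors and -0.0038 in DESeq2. Leaving out 1 library, the batch-adjusted value ranged from -0.14 to 0.060 for CDT1, -0.048 to 0.15 for GMNN, -0.0064 to 0.073 for MCM2, -0.16 to 0.0054 for MCM3, -0.028 to 0.13 for MCM4, -0.033 to 0.047 for MCM7 and -0.044 to 0.12 for RRM2.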

Other observations

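Factors that restore chromatin behind the fork were read from a further fixed list of 9 genes. In the group fit 1 of the 9 rose (11.1%, against 7.61% of all genes tested) and none fell. With batch 4 rose (CHAF1A, UHRF1, DNMT1 and HELLS; 44.4%, against 31.2%) and 1 fell (ASF1B; 11.1%, against 29.4%), with a median log2 fold change of 0.15 by group and 0.16 with batch. UHRF1, which brings the maintenance methyltransferase to newly copied DNA, was at 72.6, 83.4 and 83.7 CPM in SSC PDGF+ and 50.7, 52.5 and 45.4 CPM in SSC PDGF-, without overlap. Its log2 fold change was 0.69 (SE 0.14, adjusted p = 0.0127) in edgeR's quasi-likelihood test by group, a call lost without SSC PDGF+ replicate 2 or 3 or SSC PDGF- replicate 3, and 0.77 (SE 0.075, adjusted p = 3.4e-09) with batch and the GC correction. DNMT1, that methyltransferase, was at 101, 139 and 144 CPM in SSC PDGF+ and 77.4, 115 and 109 CPM in SSC PDGF-, higher with PDGF within each batch, at 0.35 (SE 0.056, adjusted p = 9.1e-06) with batch. ASF1B, a histone chaperone, was at 30.8, 34.6 and 40.5 CPM in SSC PDGF+ and 38.4, 47.6 and 44.8 CPM in SSC PDGF-, at -0.31 (SE 0.090, adjusted p = 0.00527) with batch and -0.14 (SE 0.089, adjusted p = 0.174) with the GC correction as well.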
